A study of Mus musculus with 19 samples.

Results

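The genes described here are 28 genes of cholesterol synthesis, uptake and efflux, followed in RNA-seq of mouse mammary glands and mammary tumors. They were chosen by name as the rows of a table of 46078 genes whose identifiers map to the listed symbols, and all 28 were found. The rule itself uses no measured value, but the list was drawn up with earlier results of these data known. 18 of them encode enzymes of the synthesis pathway, 4 encode sterol-sensing regulators, 4 act in uptake and intracellular transport and 2 are efflux transporters. The study asked what mutant p53 in stromal fibroblasts does to HER2/neu-driven mammary tumors and to the glands around them. The 19 libraries form 5 groups. MGWT denotes glands of age-matched Wild Type mice (n = 3). MGN denotes glands without malignant lesions from tumor-bearing N mice (n = 4), of which replicate 1 carried MMTV-neu and Fsp-Cre, whereas replicates 2, 3 and 4 carried MMTV-neu with p53wm-R172H/+ and no Cre. MGNP denotes such glands from NP mice, which carried MMTV-neu, p53wm-R172H/+ and Fsp-Cre (n = 4). TN denotes tumors of MMTV-neu;Fsp-Cre mice (n = 4), and TNP tumors of mice with all 3 alleles (n = 4). MMTV-neu expresses neu in mammary epithelium, and every group except MGWT carries it. Fsp-Cre expresses Cre in fibroblasts, where it turns the conditional p53wm-R172H allele, which otherwise makes wild-type p53, into the R172H form. The mice carrying MMTV-neu were of a mixed FVB/C57/BALB/c background, and the background of the Wild Type mice is not stated. The ages of the sequenced mice are not given in the labels. Whole tissue was sequenced.

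Cells build cholesterol from acetyl-CoA through mevalonate, the isoprenoid farnesyl diphosphate, squalene and lanosterol. The pathway is controlled by SREBP-2, a transcription factor encoded by *Srebf2* that is held in the endoplasmic reticulum by the proteins *Scap* and Insig while sterols are plentiful, and is released to activate the genes of synthesis and uptake when sterols run low. Sterol-loaded cells instead use liver X receptors to raise the exporters *Abca1* and *Abcg1*. In mammary tissue, adipocytes store cholesterol taken up from the blood, and dividing epithelial cells need it for membranes.

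The libraries held 54677315 to 62645459 reads on genes in MGWT and 20899152 to 27262440 in the other 16. *Erbb2*, on which reads of the neu transgene may be counted, was at 73426 to 155042 normalized counts in the 8 tumors and at 1845 to 14718 in the 11 glands. The tissue of the groups differed strongly by its markers. The summed normalized counts of 9 white adipocyte genes were 4003 to 5441 in MGWT, 300271 to 411034 in MGN, 148249 to 388589 in MGNP, 1594 to 9156 in TN and 3090.2 to 5005 in TNP, with *Lep* and *Plin1* at 0 in at least 1 TN library. Fat is a defining tissue of the mammary gland, so the MGWT glands stood apart from the other glands in a marker of their labelled tissue. The sums of 9 luminal epithelial genes were 121547 to 143144 in MGWT, 16922 to 31152 in MGN, 12003 to 35662 in MGNP and 93626 to 177483 in the tumors. Those of 7 basal epithelial genes were 57089 to 69995 in MGWT, 8810.5 to 22699 in MGN and MGNP and 1339 to 4934 in the tumors. The sums of 12 skeletal muscle genes were 11349 to 2652319 in MGNP, 643 to 16749.9 in MGN, 269.9 to 298 in MGWT (*Tnnc2* at 0 in 1 or more libraries) and 211 to 28726 in the tumors (*Myh2* at 0 in 1 or more TN libraries), and MGNP replicates 2 and 4 held the highest sums. The sums of 9 macrophage genes were 5176 to 6678 in MGWT, 23810 to 59480 in MGN, 15446 to 30465 in MGNP and 11999 to 24962 in the tumors. Those of 7 fibroblast genes were 39251 to 64652 in MGWT, 131308 to 466316 in MGN, 61985 to 144737 in MGNP and 26746 to 268190 in the tumors. The sums of 7 lymphocyte genes were 919.9 to 1589.7 in MGWT, 654 to 6046 in MGN, 399.7 to 10475 in MGNP and 48.5 to 487.8 in the tumors, with *Cd79a* at 0 in at least 1 TN library. In whole tissue, fewer cells of a type and less RNA per cell cannot be told apart. The part of these differences in the results was not tested, except where a value without the muscle-rich libraries or adjusted for muscle is given.

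The 28 genes did not move as a block. Against MGWT, glands of N mice held more message of 4 early enzymes (*Acat2*, *Hmgcs1*, *Mvk* and *Pmvk*) and of *Insig1*, and the tumors held more message of several early and late enzymes. Each comparison used limma on log2(normalized count + 1), with Benjamini-Hochberg adjustment over all genes tested, and a gene passed at an adjusted p under 0.05. Differences are given on that log2 scale as the first-named group minus the second. In MGN against MGWT, 12 members were higher and 5 lower, beside 30.0% and 29.2% of all 19017 genes tested. The median log2 difference was 0.47 over the members and 0.02 over all genes. In MGNP against MGWT, 5 members were higher and 5 lower, beside 22.4% and 24.0% of all genes, with medians of 0.23 and 0.02. Both comparisons share the 3 MGWT libraries. In TN against MGN, 6 members were higher and 6 lower, beside 23.5% and 27.8% of all genes, with medians of 0.28 and -0.05. In simulated data for TN against MGN, with 18316 genes, 24% of genes changed by 1 on the log2 scale passed and 97% of those changed by 2. Only 200 genes were changed there, far fewer than passed in the real comparison, and the spread between replicates was fixed (dispersion 0.1). These shares therefore do not give the chance of a call in the real data. In TNP against MGNP, 10 members were higher and 1 lower, beside 26.2% and 29.3% of all genes, with medians of 0.43 and -0.07. A muscle score, the mean log2(normalized count + 1) of the 12 skeletal muscle genes in a library, served as a covariate. With it 3 members remained higher in TNP against MGNP, namely *Sqle*, *Ebp* and *Dhcr7*, and 0 lower. Without MGNP replicates 2 and 4 the counts were 9 and 1. How many of all genes passed in these fits is not given here, so a general loss of calls cannot be told from one in the members. With the mean of TN and TNP against MGWT, 14 members were higher and 1 lower, beside 30.4% and 34.4% of all genes, with medians of 0.47 and -0.07. In this last comparison 14 of 28 members (10 of 18 enzymes) were higher, against fewer than 1 in 3 of all genes, and 1 was lower, against more than 1 in 3.

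**Figure D1:**
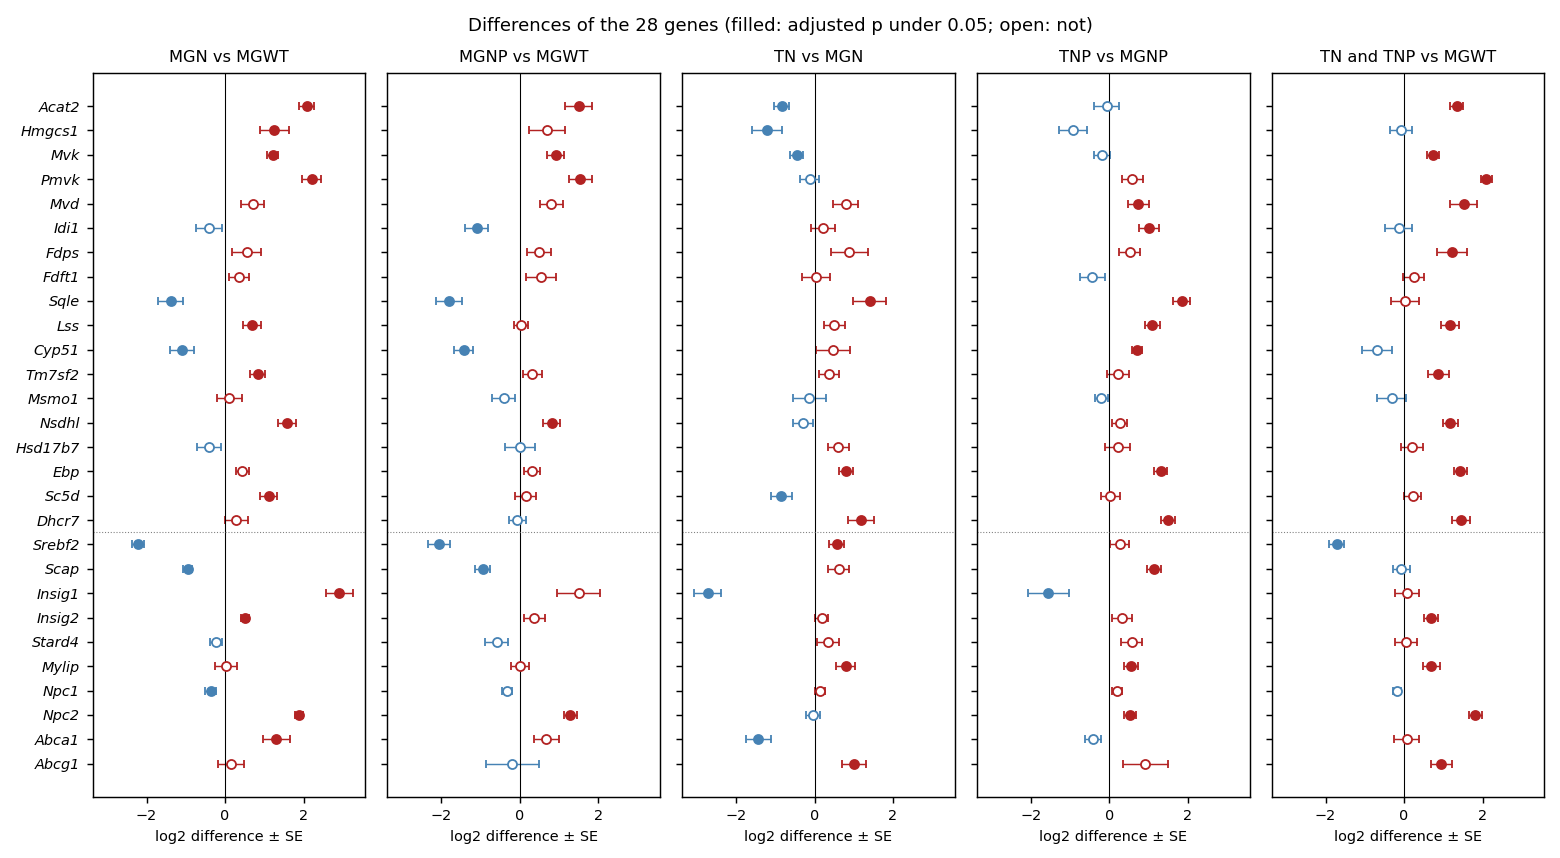
Log2 differences ± SE of the 28 genes (rows, enzymes above the dotted line in pathway order) in 5 comparisons (columns), on the log2(normalized count + 1) scale, with red for higher and blue for lower in the first-named group and filled points for an adjusted p under 0.05. Insig1 has the largest rise among members in MGN against MGWT (2.91) and the largest fall in TN against MGN (-2.72), and Srebf2 lies at -2.21, -2.06 and -1.72 in the 3 comparisons with MGWT.

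Promoters of members share a simple sequence feature. RefSeq promoter windows of GRCm38.p6, running from 250 bases before to 50 after a transcription start site, were at hand for 22 of the 28 genes, some of them with several starts. They were searched on both strands for the NF-Y box, CCAAT, bound by the factor NF-Y that works beside SREBP-2, and for the core of the sterol regulatory element, TCACNCCAC. The NF-Y box was found for 19 of 22 members (86.4%) and for 14 of 15 enzymes (93.3%), and for 41.1% of all 27025 genes in the table. The sterol regulatory element core was found for 1 of 22 members, *Hmgcs1* (137 bases before its start), and for 1.44% of all genes. No match of one overlapped a match of the other. The 4 promoters printed here, taken from the 250 bases before the RefSeq start without bases that lie in an exon of GENCODE vM21, are those of the gene with both motifs (*Hmgcs1*), the gene with the most NF-Y boxes (*Mvk*, with 5), the gene with the largest difference (*Insig1*) and an enzyme that was higher in tumors (*Ebp*). Each is written 5′ to 3′ on the strand of its gene, with matches in capitals, where ATTGG is the NF-Y box read from the other strand.
Hmgcs1: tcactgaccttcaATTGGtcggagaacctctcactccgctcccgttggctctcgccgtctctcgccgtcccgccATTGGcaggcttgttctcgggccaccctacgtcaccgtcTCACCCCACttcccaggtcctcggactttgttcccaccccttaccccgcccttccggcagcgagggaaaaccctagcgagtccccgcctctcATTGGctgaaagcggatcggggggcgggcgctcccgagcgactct
Mvk: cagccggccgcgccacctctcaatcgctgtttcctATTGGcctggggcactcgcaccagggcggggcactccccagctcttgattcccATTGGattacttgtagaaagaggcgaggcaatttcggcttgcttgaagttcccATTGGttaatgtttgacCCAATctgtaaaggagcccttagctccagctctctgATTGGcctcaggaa
Insig1: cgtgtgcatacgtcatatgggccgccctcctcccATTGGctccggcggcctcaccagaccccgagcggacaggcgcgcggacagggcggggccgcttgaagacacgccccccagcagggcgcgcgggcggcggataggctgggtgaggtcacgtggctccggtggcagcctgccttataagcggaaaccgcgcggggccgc
Ebp: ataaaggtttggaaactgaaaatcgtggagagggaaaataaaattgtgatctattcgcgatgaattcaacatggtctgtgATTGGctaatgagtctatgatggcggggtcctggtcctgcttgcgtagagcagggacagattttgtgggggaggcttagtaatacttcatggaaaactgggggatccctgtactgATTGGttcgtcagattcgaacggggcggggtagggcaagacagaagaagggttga
The printed stretches lie at chr13:119690101-119690350 (plus strand, *Hmgcs1*), chr5:114444061-114444268 (plus strand, *Mvk*), chr5:28071162-28071362 (plus strand, *Insig1*) and chrX:8193513-8193762 (minus strand, *Ebp*). All of them are upstream of the RefSeq start and outside annotated exons. Left off were 49 bases in the first exon of the longer GENCODE model of *Insig1*, and 42 bases of the *Mvk* window in the first exon of *Mmab*, a neighbour on the other strand. The *Insig1* window holds 1 NF-Y box, 216 bases before the start, although this gene differed more between groups than any other member, and the *Acat2* window, of a gene that was 4.22-fold higher in MGN than in MGWT, holds neither motif.

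**Figure D2:**
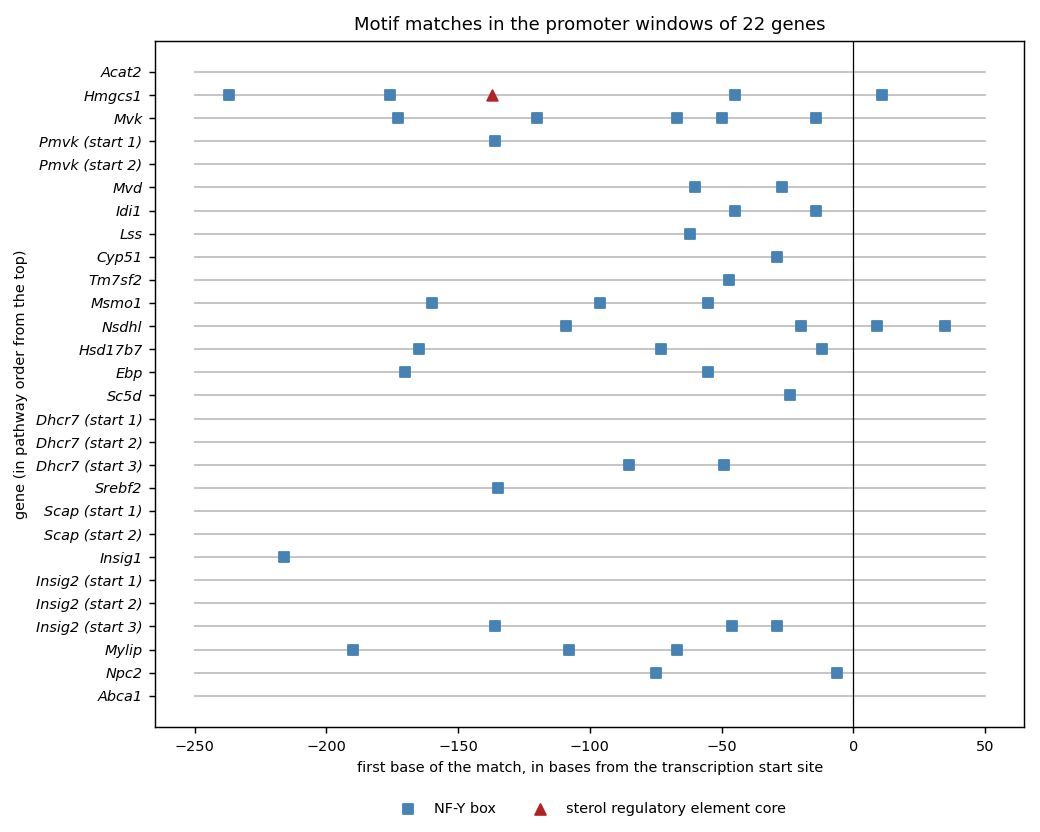
Positions of motif matches in the promoter windows of 22 members (rows, with several starts of a gene numbered), in bases from the transcription start site, which is the vertical line; squares are the NF-Y box and the triangle is the sterol regulatory element core. The box lies at 1 to 5 positions in the windows of 19 members and at none for Acat2, Scap and Abca1.

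4 enzymes of the first steps, from acetyl-CoA to diphosphomevalonate, had their highest group mean in the glands of N mice. *Acat2*, the thiolase that joins acetyl groups, had normalized counts of 315, 274 and 322 in MGWT and 1699, 1099, 1441 and 1009 in MGN. Its transcript matches *Acat3* (97.7% identity over 1477 bases) and *Tcp1* (98.7% over 445 bases). *Tcp1* had a mean of 6288.3 normalized counts, and reads of these genes may not be separated from those of *Acat2*. *Pmvk*, phosphomevalonate kinase, was at 220.1, 207 and 216 in MGWT and 1402, 783, 1219.9 and 724 in MGN. No MGN library overlapped an MGWT library for either gene, and MGN replicate 1 was the highest for both. *Acat2* differed by 2.08 ± 0.19 (SE), adjusted p = 6.29e-05, and *Pmvk* by 2.21 ± 0.24 (SE), adjusted p = 0.000143. *Mvk*, mevalonate kinase, was at 200.4, 179 and 219.6 in MGWT and 410.1, 504, 483 and 468 in MGN (1.22 ± 0.14 (SE), adjusted p = 0.0002). *Hmgcs1*, which makes hydroxymethylglutaryl-CoA, was at 1616, 1362 and 2666 in MGWT and 7328, 3078, 2797 and 5444 in MGN, where replicates 2 and 3 lay just above the highest MGWT library. Its difference was 1.25 ± 0.37 (SE), adjusted p = 0.0189, and the call was lost for *Hmgcs1* without any 1 of MGWT replicates 1 and 2 (adjusted p from 0.065 to 0.0739).

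In the glands of NP mice these genes lay between MGWT and MGN on average. *Acat2* was at 620.0, 579.5, 958 and 1599.9 in MGNP (1.50 ± 0.35 (SE), adjusted p = 0.0114 against MGWT), and *Pmvk* at 368, 709, 878 and 659 (1.54 ± 0.29 (SE), adjusted p = 0.00493). *Mvk* was at 284, 408, 474 and 360.3 (0.91 ± 0.21 (SE), adjusted p = 0.0116). *Hmgcs1* was at 2080.2, 2158, 2418 and 6692, so that replicate 4 stood far above the other 3, and its difference of 0.69 did not pass (adjusted p = 0.235). No member passed in MGNP against MGWT when the muscle score was a covariate, although the difference was no smaller for *Acat2* (1.65, adjusted p = 0.258), *Mvk* (1.34, adjusted p = 0.135), *Pmvk* (2.05, adjusted p = 0.106) and *Npc2* (1.47, adjusted p = 0.0557) and close to its former size for *Nsdhl* (0.75, adjusted p = 0.403). MGNP and MGWT do not overlap in that score, so the muscle content and the group cannot be told apart there, and without MGNP replicates 2 and 4 the counts were again 5 higher and 5 lower.

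In TN, *Acat2*, *Hmgcs1* and *Mvk* were lower than in MGN, and in the tumors *Acat2*, *Mvk* and *Pmvk* were higher than in MGWT. *Acat2* was at 603, 673, 744 and 881 in TN and 878, 1043, 652 and 769 in TNP, below every MGN library in TN (-0.84 ± 0.20 (SE), adjusted p = 0.00835) and above every MGWT library in both (1.34 ± 0.17 (SE), adjusted p = 4.15e-05 for the tumors against MGWT). *Pmvk* was at 749.9, 955, 909.9 and 1053 in TN and 932, 1189, 874 and 794 in TNP, and it had the largest rise of all members in the tumors against MGWT (2.1 ± 0.15 (SE), adjusted p = 9.65e-07). Between TN and MGN *Pmvk* differed by -0.12 (adjusted p = 0.679), with overlap. *Hmgcs1* was at 1119, 2677, 1529 and 2625 in TN and 1585, 1739.6, 1505 and 1351 in TNP, so that the tumors overlapped MGWT and lay below every MGN library. The difference between TN and MGN was -1.21 ± 0.39 (SE), adjusted p = 0.0284. For TNP against MGNP it was -0.92 ± 0.35 (SE), adjusted p = 0.0503, just short of the threshold, and *Hmgcs1* passed as lower there with TMM scaling (adjusted p = 0.0473), with edgeR (0.033) and with DESeq2 (0.0136). *Mvk* was at 282, 349, 336 and 398 in TN and 290.4, 319.6, 322 and 392.0 in TNP, lower in TN than in MGN (-0.46 ± 0.16 (SE), adjusted p = 0.0433) and higher in the tumors than in MGWT (0.74 ± 0.16 (SE), adjusted p = 0.00183). In TN against MGN, the call was lost for *Hmgcs1* without any 1 of MGN replicates 1 and 4 and TN replicates 1 and 3 (adjusted p from 0.0628 to 0.0754), and for *Mvk* without any 1 of MGN replicates 1, 2, 3 and 4 and TN replicates 1, 2 and 3 (adjusted p from 0.0501 to 0.107).

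The remaining early enzymes followed other patterns. *Mvd*, diphosphomevalonate decarboxylase, was at 119.8, 73.2 and 159 in MGWT, 191.1, 187, 222 and 140.1 in MGN and 171.7, 224, 214 and 176 in MGNP. In the tumors it was at 220.4, 240.2, 358 and 532 in TN and 526, 309, 294 and 238 in TNP. It was higher in the tumors than in MGWT (1.52 ± 0.34 (SE), adjusted p = 0.00219) and in TNP than in MGNP (0.74 ± 0.26 (SE), adjusted p = 0.0377), and the second call was lost for *Mvd* without any 1 of MGNP replicates 1 and 4 and TNP replicates 1, 2 and 3 (adjusted p from 0.0547 to 0.0844) and with TNP replicates 1 and 2 averaged (0.66, adjusted p = 0.0591). *Idi1*, the isopentenyl diphosphate isomerase, was at 882, 588 and 1408 in MGWT, 932, 552, 783 and 518 in MGN and 363, 359.7, 478 and 502 in MGNP, with every MGNP library below every MGWT and MGN library. *Idi1* was lower in MGNP than in MGWT (-1.10 ± 0.30 (SE), adjusted p = 0.0213), a call lost for *Idi1* without any 1 of MGWT replicates 1 and 3 (adjusted p from 0.0633 to 0.0654), and higher in TNP (1012, 1276, 700.1 and 574) than in MGNP (1.01 ± 0.26 (SE), adjusted p = 0.0109). In TN, *Idi1* was at 542, 936, 592 and 1285, overlapping MGN. The transcript of *Idi1* matches the processed pseudogene *Gm13502* at 100% identity over 684 bases, so reads of the pair may not be separated. *Fdps*, farnesyl diphosphate synthase, had only 25.4 to 164 normalized counts over the 19 libraries, with the lowest level per kb of exon of all 28 members in every group. Its transcripts match 4 processed pseudogenes and the overlapping gene *Gm43738* at 95% identity or more over at least 200 bases, and how the authors counted such reads is not given in the sources used here, so its values are uncertain. *Fdps* was higher in the tumors than in MGWT (1.22 ± 0.39 (SE), adjusted p = 0.0165), a call lost for *Fdps* without any 1 of MGWT replicates 1 and 2 (adjusted p from 0.0593 to 0.0791).

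By group mean, *Sqle* and *Cyp51*, which work on squalene and lanosterol, were lowest in the glands of tumor-bearing mice, although TN replicate 1 did not lie above these glands. *Sqle*, squalene epoxidase and a rate-limiting step, was at 1615, 1141 and 2479 in MGWT, 822, 429.8, 857 and 545 in MGN and 605, 415, 617 and 324 in MGNP. In the tumors it was at 742, 2555, 1581 and 2729.8 in TN and 1682, 1650.5, 1977 and 1519.5 in TNP. No MGN or MGNP library reached the lowest MGWT library, and all of TNP lay above all of MGNP. *Sqle* was lower in MGN (-1.38 ± 0.32 (SE), adjusted p = 0.0063) and in MGNP (-1.81 ± 0.33 (SE), adjusted p = 0.00429) than in MGWT, and higher in TN than in MGN (1.41 ± 0.42 (SE), adjusted p = 0.0219) and in TNP than in MGNP (1.84 ± 0.22 (SE), adjusted p = 0.000223). Against MGWT the tumors differed by 0.03 (adjusted p = 0.945). The call in TN against MGN was lost for *Sqle* without any 1 of MGN replicates 2 and 4 and TN replicates 2 and 4 (adjusted p from 0.0549 to 0.0607). Without MGNP replicates 2 and 4, both MGNP calls of *Sqle* still passed, whereas with the muscle covariate that against MGWT did not (-0.77, adjusted p = 0.509). MGNP and MGWT do not overlap in the muscle score.

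*Cyp51*, lanosterol demethylase, was at 1312, 1053 and 2203 in MGWT, 945, 459, 819.8 and 585 in MGN and 517, 548, 556 and 535 in MGNP, without overlap between MGWT and either gland group. It was lower in MGN (-1.10 ± 0.31 (SE), adjusted p = 0.0162) and in MGNP (-1.43 ± 0.24 (SE), adjusted p = 0.00331), and the first call was lost for *Cyp51* without MGWT replicate 3 (adjusted p = 0.0615). Its tumor values were 403, 1576, 799.8 and 1489 in TN and 894, 1003, 916 and 734 in TNP, and only TNP against MGNP passed (0.71 ± 0.13 (SE), adjusted p = 0.00236), a call lost with all 5 groups in 1 fit (adjusted p = 0.0886). *Lss*, lanosterol synthase, which acts between these enzymes, was at 835, 677 and 959.5 in MGWT, 1783, 1015, 1557 and 1025 in MGN and 680.0, 891, 938 and 878 in MGNP. Its tumor values were 1438, 1815, 1557 and 2822 in TN and 2172, 2341, 1383 and 1503 in TNP, above every MGNP and MGWT library. *Lss* was higher in the tumors than in MGWT (1.16 ± 0.23 (SE), adjusted p = 0.0011), in TNP than in MGNP (1.10 ± 0.20 (SE), adjusted p = 0.00205) and in MGN than in MGWT (0.68 ± 0.23 (SE), adjusted p = 0.0349), the last lost for *Lss* without any 1 of MGWT replicates 1 and 2 and MGN replicates 1 and 3 (adjusted p from 0.0694 to 0.122). *Fdft1*, squalene synthase, ranged from 672 to 958 in MGWT, 718 to 1556 in MGN, 623 to 1819.9 in MGNP, 614 to 1655 in TN and 735 to 945 in TNP, and passed no comparison. *Fdft1* shares 774 exonic bases with *Ctsb* on the other strand, and whether the counting used strand is unknown, so reads of the pair may not be separated.

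The late enzymes that finish the sterol ring and side chain included the most uniform tumor increases. *Ebp*, the sterol isomerase, was at 1628, 1193, 1503 and 1026 in TN and 1812, 1729.8, 1529 and 1750.5 in TNP, above all 11 glands, which ranged from 472 to 874. *Ebp* was higher in TN than in MGN (0.80 ± 0.18 (SE), adjusted p = 0.00542), in TNP than in MGNP (1.31 ± 0.16 (SE), adjusted p = 0.000226) and in the tumors than in MGWT (1.43 ± 0.17 (SE), adjusted p = 2.63e-05). *Dhcr7*, the reductase that yields cholesterol from its dehydro precursor, was at 1291, 1343, 678 and 1322 in TN and 987, 1282, 1262 and 879 in TNP. In the glands *Dhcr7* was at 449, 316 and 457 in MGWT, 748, 378, 624 and 328 in MGN and 402, 349.7, 473 and 333 in MGNP. TN replicate 3 fell below the highest MGN library, and otherwise tumors and glands did not overlap. *Dhcr7* was higher in TN than in MGN (1.18 ± 0.33 (SE), adjusted p = 0.0152), in TNP than in MGNP (1.49 ± 0.18 (SE), adjusted p = 0.000234) and in the tumors than in MGWT (1.45 ± 0.23 (SE), adjusted p = 0.000227). *Ebp* and *Dhcr7* kept these calls without MGNP replicates 2 and 4 and without any 1 library.

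*Nsdhl* and *Sc5d*, in contrast, peaked in MGN. *Nsdhl*, a dehydrogenase that removes methyl groups at the sterol ring, was at 283, 242 and 336 in MGWT, 1141, 709, 1001.1 and 634 in MGN and 365, 522, 536 and 606 in MGNP. In the tumors it was at 541, 909, 558 and 829.8 in TN and 663, 639, 505 and 614 in TNP, so that MGWT lay below all other groups without overlap. *Nsdhl* was higher than in MGWT in MGN (1.57 ± 0.23 (SE), adjusted p = 0.000626), in MGNP (0.81 ± 0.22 (SE), adjusted p = 0.0204) and in the tumors (1.18 ± 0.19 (SE), adjusted p = 0.000282), and the MGNP call was lost for *Nsdhl* without any 1 of MGWT replicates 1 and 2 (adjusted p from 0.0669 to 0.0756) and without both MGNP replicates 2 and 4 (adjusted p = 0.0621). *Sc5d*, the sterol desaturase, was at 2082, 1829.7, 2594 and 1344 in MGN, whereas the other 4 groups together ranged from 618 to 1482. *Sc5d* was higher in MGN than in MGWT (1.11 ± 0.22 (SE), adjusted p = 0.00298) and lower in TN than in MGN (-0.85 ± 0.27 (SE), adjusted p = 0.0267), the second lost for *Sc5d* without any 1 of MGN replicates 1, 2 and 3 and TN replicates 1 and 2 (adjusted p from 0.053 to 0.0726).

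*Tm7sf2*, a sterol reductase, ranged from 120.1 to 150.5 in MGWT, 190.8 to 278 in MGN, 116 to 191.3 in MGNP, 209 to 425 in TN and 142 to 281 in TNP. It was higher than in MGWT in MGN (0.83 ± 0.19 (SE), adjusted p = 0.00587) and in the tumors (0.87 ± 0.27 (SE), adjusted p = 0.0133), and the tumor call was lost for *Tm7sf2* without any 1 of MGWT replicates 2 and 3 (adjusted p from 0.052 to 0.0538). *Tm7sf2* shares 532 exonic bases with *Vps51* on the same strand, so reads of the pair may not be separated. *Msmo1*, the methylsterol monooxygenase (252 to 1019 over all libraries), and *Hsd17b7*, a ketosteroid reductase (251.3 to 727), passed no comparison.

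**Figure D3:**
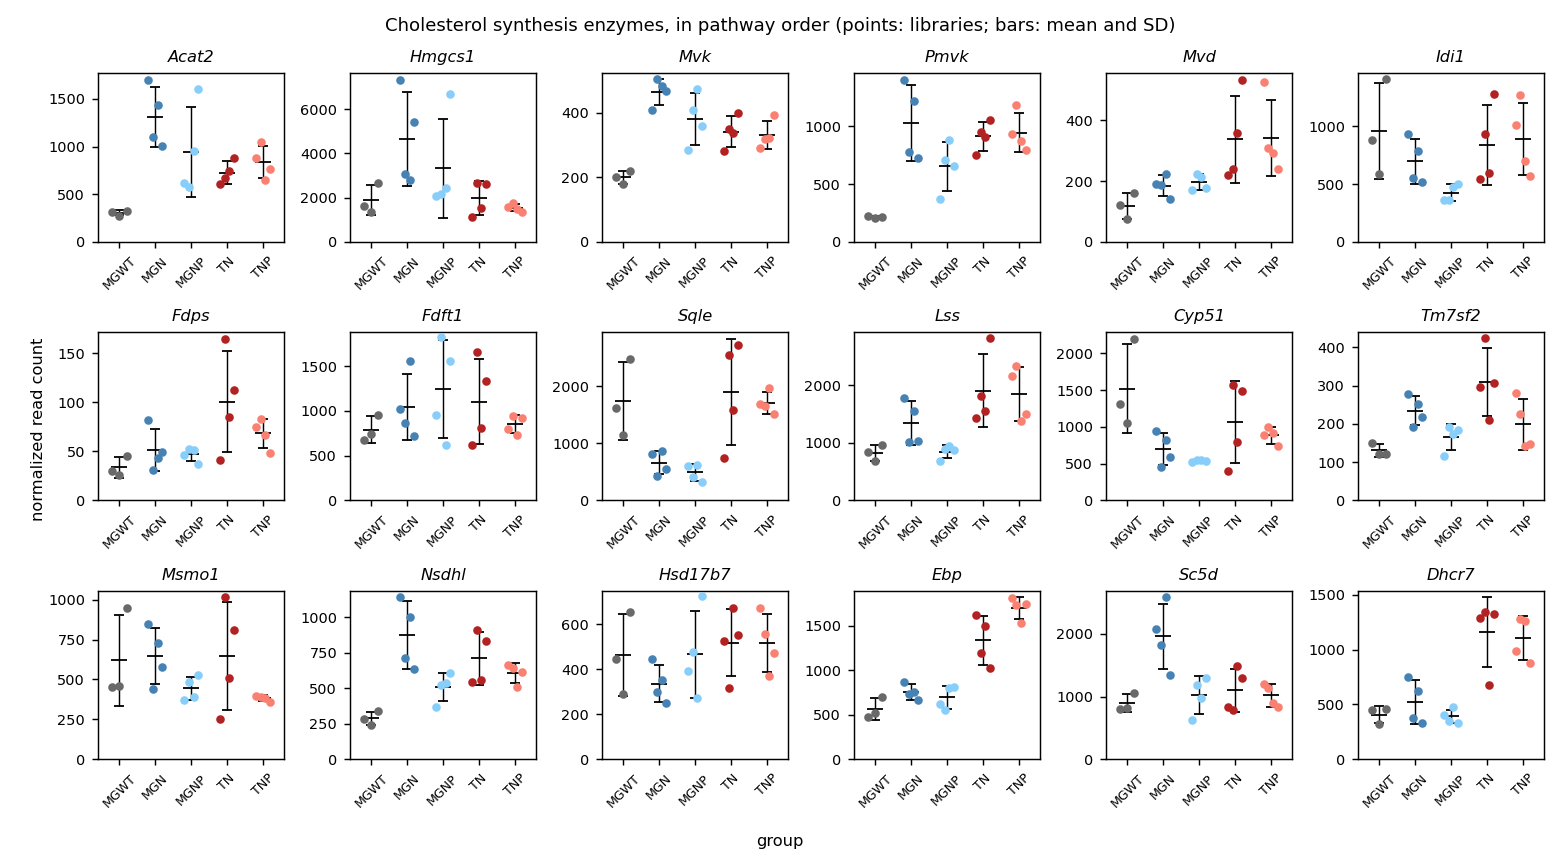
Normalized read counts (y axis, from 0) of the 18 synthesis enzymes in each of the 19 libraries (points) by group (x axis), with the mean and SD of a group as black bars. By group mean, Acat2, Pmvk, Nsdhl and Sc5d are highest in MGN, and Sqle is lowest in MGN and MGNP (libraries at 324 to 857). Ebp is at 1026 to 1812 in the 8 tumors and at 472 to 874 in the 11 glands.

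Over the 18 enzymes, the group with the highest mean count was MGN for 7, TN for 5, TNP for 3, MGWT for 2 and MGNP for 1, and the lowest was MGWT for 11. Their summed normalized counts were 9075 to 15919 in MGWT, 13584 to 23036 in MGN, 9578 to 17815 in MGNP, 12118 to 21402 in TN and 13901 to 17862 in TNP, so that all groups overlapped in the sum while single enzymes differed by up to 4.82-fold between group means. Libraries of a group were often ordered alike across enzymes. MGWT replicate 3 was the highest of its group for 16 of 18 enzymes, MGN replicate 1 for 13 and TN replicate 1 the lowest for 13, and TN replicates 2 and 4 together were the highest for 15. The enzymes of a library share its depth, its scaling and its tissue composition.

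Among the members, the regulator *Insig1* had the widest range of group means (7.83-fold), whereas that of the regulator *Insig2* was 1.65-fold. *Insig1*, which holds *Scap* and SREBP-2 in the endoplasmic reticulum and is itself a target of SREBP-2, had normalized counts of 716, 783 and 1281 in MGWT. In MGN it was at 11126, 3848, 7745 and 6268 and in MGNP at 1184, 2516, 2103 and 6632. In the tumors it was at 733, 918, 1016 and 1588 in TN and 1356, 1121, 682 and 543 in TNP. Every MGN library was above every MGWT and tumor library, whereas MGNP replicate 1 lay within the MGWT range. *Insig1* was higher in MGN than in MGWT (2.91 ± 0.35 (SE), adjusted p = 0.000237), lower in TN than in MGN (-2.72 ± 0.34 (SE), adjusted p = 0.000402) and lower in TNP than in MGNP (-1.55 ± 0.51 (SE), adjusted p = 0.0284). The last call was lost for *Insig1* without any 1 of MGNP replicate 2 and TNP replicates 3 and 4 (adjusted p from 0.0538 to 0.0778) and without both MGNP replicates 2 and 4 (-0.86, adjusted p = 0.114). In MGNP against MGWT the difference of 1.50 missed the threshold (adjusted p = 0.054), whereas edgeR (1.79, adjusted p = 0.0414) and DESeq2 (1.78, adjusted p = 0.00631) called it higher. The tumors and MGWT differed by 0.07 (adjusted p = 0.855). The white adipocyte sum of every MGN library was also more than that of every MGWT and tumor library, and its part in the *Insig1* difference was not tested.

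*Insig2*, the related retention protein that is less tied to SREBP-2, ranged from 663 to 765 in MGWT and 954 to 1059.7 in MGN and was at 762, 1203, 628 and 1266 in MGNP. It was higher than in MGWT in MGN (0.51 ± 0.10 (SE), adjusted p = 0.0037) and in the tumors (0.69 ± 0.18 (SE), adjusted p = 0.00503), where it ranged from 856 to 1390.2. The ratio of *Insig1* to *Insig2* counts in a library was 1.02 to 1.78 in MGWT, 4.03 to 10.5 in MGN, 1.55 to 5.24 in MGNP, 0.69 to 1.41 in TN and 0.46 to 0.98 in TNP. With all 5 groups in 1 fit, *Insig2* no longer passed in MGN against MGWT (adjusted p = 0.081).

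*Srebf2* stood out in MGWT. It was at 6026, 5171 and 7934 there, 1323, 1440.1, 1294 and 1377 in MGN and 1868, 1110.5, 2185 and 1139 in MGNP. In the tumors *Srebf2* was at 1559, 1796, 2057 and 2801 in TN and 1766, 1834, 1878 and 1764 in TNP. The lowest MGWT library thus held more than the highest of the other 16, and the 3 MGWT libraries were also the most deeply sequenced. *Srebf2* was lower than in MGWT in MGN (-2.21 ± 0.15 (SE), adjusted p = 1.29e-05), in MGNP (-2.06 ± 0.29 (SE), adjusted p = 0.00152) and in the tumors (-1.72 ± 0.18 (SE), adjusted p = 1.05e-05), and no left-out library ended these calls. With the muscle covariate, in whose score MGNP and MGWT do not overlap, the MGNP call of *Srebf2* was lost (-0.69, adjusted p = 0.354). It was higher in TN than in MGN (0.56 ± 0.18 (SE), adjusted p = 0.0286), a call lost for *Srebf2* without any 1 of MGN replicates 1, 2, 3 and 4 and TN replicate 3 (adjusted p from 0.0511 to 0.0689).

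*Scap*, the escort of SREBP-2, was at 3113, 3165 and 3132 in MGWT, 1475, 1917, 1588 and 1557 in MGN and 1694, 1348, 2242 and 1364 in MGNP, without overlap of MGWT with either. Its tumor values were 3289, 1359, 2958 and 2915 in TN, where replicate 2 was far below the other 3, and 3904, 3668, 3338 and 3431 in TNP. *Scap* was lower in MGN (-0.95 ± 0.11 (SE), adjusted p = 0.000224) and in MGNP (-0.95 ± 0.19 (SE), adjusted p = 0.00672) than in MGWT and higher in TNP than in MGNP (1.14 ± 0.17 (SE), adjusted p = 0.000791). The difference between TN and MGN of 0.62 did not pass (adjusted p = 0.0853) but did without TN replicate 2 (0.91, adjusted p = 0.0015). After adjustment for the muscle score, the sign of *Scap* in MGNP against MGWT turned (0.08, adjusted p = 0.869), but these groups do not overlap in that score.

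Among the genes of uptake and intracellular transport, *Npc2* had the clearest pattern. *Npc2*, the soluble lysosomal protein that passes cholesterol to *Npc1*, was at 1888, 2346 and 2177 in MGWT and 8227, 7549.8, 7393 and 8157 in MGN. It was at 4553, 4586, 5693 and 6172 in MGNP, 5810.2, 9987, 6767 and 8576 in TN and 7969, 8342, 6754 and 6859.6 in TNP. MGWT lay below all other libraries, and MGNP below MGN and TNP without overlap. *Npc2* was higher than in MGWT in MGN (1.88 ± 0.11 (SE), adjusted p = 6.85e-06), in MGNP (1.29 ± 0.16 (SE), adjusted p = 0.000916) and in the tumors (1.82 ± 0.16 (SE), adjusted p = 4.39e-06). It was higher in TNP than in MGNP (0.52 ± 0.15 (SE), adjusted p = 0.0162), a call lost for *Npc2* without TNP replicate 2 (adjusted p = 0.0508). The macrophage sums were also lowest in MGWT, and their part was not tested.

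*Npc1*, the membrane partner of *Npc2*, varied little. Its normalized counts ranged from 2317 to 2748 in MGWT and 1721 to 2489.9 in the other 16 libraries. It was lower in MGN than in MGWT (-0.37 ± 0.13 (SE), adjusted p = 0.0321), a call lost for *Npc1* without any 1 of MGWT replicates 1, 2 and 3 and MGN replicates 1, 3 and 4 (adjusted p from 0.0532 to 0.108). *Mylip*, a ubiquitin ligase that sends lipoprotein receptors for degradation, was at 2669, 2772, 2743 and 1779.8 in TN and 1715, 2054, 1863 and 2731 in TNP, against 1452, 2099, 989 and 1356 in MGN, 1727, 1306, 1346 and 1294 in MGNP and 1181, 2021 and 1139.8 in MGWT. It was higher in TN than in MGN (0.79 ± 0.24 (SE), adjusted p = 0.0252), in TNP than in MGNP (0.55 ± 0.17 (SE), adjusted p = 0.025) and in the tumors than in MGWT (0.69 ± 0.22 (SE), adjusted p = 0.0158), with overlap in each. These calls were lost, in the same order, for *Mylip* without any 1 of MGN replicates 1, 3 and 4 and TN replicates 1, 2 and 3 (adjusted p from 0.051 to 0.0617), for *Mylip* without any 1 of MGNP replicates 2, 3 and 4 and TNP replicates 2 and 4 (adjusted p from 0.0507 to 0.0604) and for *Mylip* without any 1 of MGWT replicates 1 and 3 (adjusted p from 0.084 to 0.0914), and in TNP against MGNP also without both MGNP replicates 2 and 4 (adjusted p = 0.122). *Stard4*, a cytosolic sterol carrier, ranged from 274 to 988 over all libraries and passed no comparison.

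The 2 exporters differed from each other. *Abca1*, which passes cholesterol to apolipoprotein A-I, was at 5964, 13799.6 and 5836 in MGWT, 15872, 29056, 15449 and 19929 in MGN and 13330.0, 11214, 10767 and 15029 in MGNP. In the tumors it was at 11163, 5008, 9008 and 5327 in TN and 8312, 7584, 9041 and 13275 in TNP. MGN lay above every library of every other group, and MGWT replicate 2 above the other 2 of its group. *Abca1* was higher in MGN than in MGWT (1.31 ± 0.34 (SE), adjusted p = 0.0114), a call lost for *Abca1* without any 1 of MGWT replicates 1 and 3 (adjusted p from 0.0503 to 0.0511), and lower in TN than in MGN (-1.43 ± 0.31 (SE), adjusted p = 0.00535). In TNP against MGNP the difference was -0.42 ± 0.20 (SE), adjusted p = 0.109. Without MGWT replicate 2, *Abca1* passed as higher in MGNP against MGWT (1.08, adjusted p = 0.00895).

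*Abcg1*, which passes cholesterol to high-density lipoprotein, was at 789, 1583 and 935 in MGWT, 1286, 1517, 686 and 1445 in MGN and 2294, 454, 1763 and 400.3 in MGNP. MGNP replicates 2 and 4, the libraries with the highest muscle sums, held the lowest values of all 19. In the tumors *Abcg1* was at 2471, 1476, 3202 and 2752 in TN and 1436, 1568, 1702 and 2433 in TNP. It was higher in TN than in MGN (1.01 ± 0.31 (SE), adjusted p = 0.0245) and in the tumors than in MGWT (0.95 ± 0.27 (SE), adjusted p = 0.00886), with overlap in both. These calls were lost for *Abcg1* without any 1 of TN replicates 3 and 4 (adjusted p from 0.0588 to 0.0601) and for *Abcg1* without MGWT replicate 1 (adjusted p = 0.0601), and both with all 5 groups in 1 fit (adjusted p = 0.0799 and 0.0763). Without MGNP replicates 2 and 4, *Abcg1* was higher in MGNP than in MGWT (0.93, adjusted p = 0.0383), against -0.19 (adjusted p = 0.836) with them.

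**Figure D4:**
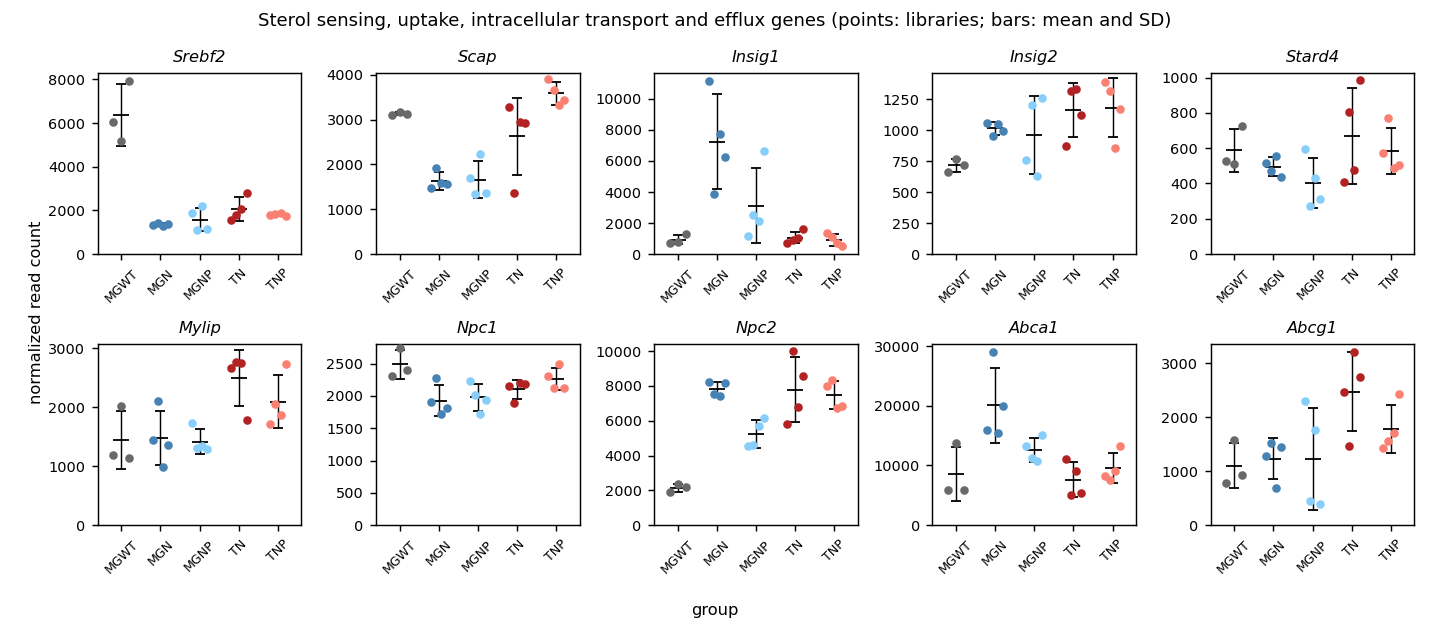
Normalized read counts (y axis, from 0) of the 4 regulators, 4 genes of uptake and intracellular transport and 2 exporters in each library (points) by group (x axis), with the mean and SD of a group as black bars. Srebf2 is highest in MGWT (5171 to 7934), Insig1 in MGN (3848 to 11126) and Abca1 in MGN (15449 to 29056), and Npc2 is lowest in MGWT (1888 to 2346).

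Per kb of exon, *Insig1* had the highest mean level of the 28 members in MGN, at 2343 normalized counts per kb, followed by *Abca1* at 1937, *Npc2* at 1440 and *Hmgcs1* at 1015. In MGWT the highest were *Srebf2* at 888 and *Abca1* at 823 normalized counts per kb, and in TN *Npc2* at 1432.

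The comparisons of mutant p53 in fibroblasts gave no call among the members by limma or edgeR, and 1 by DESeq2. In MGNP against MGN, 0 of 28 members were higher and 0 lower by limma, beside 0% and 0% of 18563 genes. At an unadjusted p under 0.05, 9 members and 1950 of all genes differed. The log2 differences were negative for 22 of 28 members and for 15 of 18 enzymes, with a median of -0.35 over the members, -0.47 over the enzymes and -0.02 over all genes. Without the muscle-rich MGNP replicates 2 and 4, 7 of the 28 members changed sign. With the muscle score as a covariate, 7 did. The smallest p was that of *Npc2* (-0.59 ± 0.14 (SE), adjusted p = 0.305), and *Insig1* (-1.41 ± 0.52 (SE), adjusted p = 0.391) had the largest difference. Of the 28 genes, 6 lay lower in MGNP without overlap, beside 4.15% of all genes, and 0 lay higher, beside 2.06%. The 6 were *Idi1*, *Lss*, *Nsdhl*, *Sc5d*, *Npc2* and *Abca1*. edgeR made no call in either direction among all genes. DESeq2 called 1 member, *Npc2*, lower (-0.55, adjusted p = 0.0208), beside 473 genes higher and 257 lower of all. The white adipocyte, fibroblast and macrophage sums were lower, and the skeletal muscle and lymphocyte sums higher, in MGNP at the median. Apart from the fits above for muscle, their part was not tested. Only MGN replicate 1 carried Fsp-Cre, so the other 3 MGN libraries differed from MGNP in Cre as well as in the recombined allele.

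In TNP against TN, 0 of 28 members were higher and 0 lower by limma, beside 0.0361% and 0.00601% of 16638 genes (6 and 1 genes). At an unadjusted p under 0.05, 0 members and 1210 of all genes differed. Neither edgeR nor DESeq2 called a member, beside 0 of all genes by edgeR and 80 higher and 40 lower by DESeq2. The log2 differences ran from -0.65 (*Tm7sf2*) to 0.52 (*Scap*), with standard errors from 0.12 to 0.42 and a median of -0.04. *Scap* was the only member whose groups did not overlap, higher in TNP beside 2.64% of all genes that were so and 1.57% that were lower (0.52 ± 0.26 (SE), adjusted p = 0.704). The interaction, a test of unequal tumor-to-gland differences in NP and N mice, gave 0 members higher and 0 lower by limma, beside 0% and 0% of 19367 genes. edgeR and DESeq2 called no member, beside 0 of all genes by edgeR and 83 higher and 285 lower by DESeq2. At an unadjusted p under 0.05 there were 3 members and 1536 of all genes. The 3 were *Abca1* (1.01 ± 0.39 (SE), adjusted p = 0.537), *Npc2* (0.56 ± 0.23 (SE), adjusted p = 0.574) and *Sc5d* (0.88 ± 0.38 (SE), adjusted p = 0.589). Thus a tumor difference that passed in one genotype and not in the other, such as that of *Acat2* or *Lss*, was not shown to differ between them. *Sqle*, *Ebp*, *Dhcr7* and *Mylip* were higher, and *Insig1* lower, both in TN than in MGN and in TNP than in MGNP. All TN tumors carried Fsp-Cre without the conditional allele, whereas MGN replicates 2, 3 and 4 carried that allele without Cre. TN against MGN and the interaction therefore also compare unlike genotypes.

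A further 29 genes of sterol and isoprenoid metabolism outside the 28 were followed, of which 27 could be tested in most comparisons. In MGN against MGWT 8 were higher and 5 lower, beside 30.0% and 29.2% of all genes. In TN against MGN the counts were 8 and 6, beside 23.5% and 27.8% of all genes. In TNP against MGNP they were 6 and 9, beside 26.2% and 29.3%. *Srebf1*, the relative of *Srebf2* that drives fatty acid synthesis, was at 5376 to 6893 normalized counts in MGWT, 7265 to 10096 in MGN, 5968 to 6851 in MGNP, 10546 to 61807 in TN and 34302 to 67026 in TNP. Every tumor was above every gland, and *Srebf1* was higher in TN than in MGN (1.87 ± 0.50 (SE), adjusted p = 0.0136) and in TNP than in MGNP (3.06 ± 0.22 (SE), adjusted p = 2.09e-05). *Nr1h3*, the liver X receptor alpha, ran the other way among glands and tumors of N and NP mice, with 1470 to 2112 in MGN and 1064 to 2665 in MGNP against 100.1 to 309.0 in the 8 tumors and 193 to 218 in MGWT. It was lower in TN than in MGN (-3.47 ± 0.35 (SE), adjusted p = 0.000162) and in TNP than in MGNP (-3.03 ± 0.31 (SE), adjusted p = 0.000103). *Cyp27a1*, a sterol hydroxylase, was at 715 to 1016 in MGN and 40.0 to 164.7 in TN (-3.36 ± 0.48 (SE), adjusted p = 0.000699). *Lcat*, which esterifies cholesterol on lipoproteins, had 22 to 43 reads in the MGN libraries, 10 to 28 in MGNP and 0 to 6 in the tumors. The white adipocyte sums were also above those of MGWT and the tumors in every MGN and MGNP library, and their part in the *Nr1h3* and *Cyp27a1* differences was not tested.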

How the data were processed

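RNA-seq was examined in 19 mouse libraries of 5 groups. The authors deposited a table of normalized counts for 46078 genes, a signal made of read counts divided by a size factor per library. According to the study's methods, mRNA libraries were sequenced as paired reads and aligned to GRCm38, and the submitters' processing notes name TopHat2 2.1.1 and Bowtie2. The labels name a stranded total RNA kit instead. The counting tool, the annotation and the use of strand are not given in the sources used here. Values of a library step in units of the same size, so reads were recovered, and 100% of values were whole within 0.05 reads. For TN replicate 3 this step was close to 1.

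Identifiers were matched to GENCODE vM21 (98.16% matched, 849 not). Groups came from the labels. Log2(normalized count + 1) was fitted with limma 3.58.1 (lmFit, eBayes with a trend) on the samples of each comparison, for genes with at least 10 normalized counts in as many samples as the smallest group. P-values were adjusted by Benjamini-Hochberg within each of 8 comparisons. The statistics were tested on simulated data. All 28 members passed the filter in every comparison. Alternatives were pseudocounts of 0.5 and 5, other filters, TMM scaling, edgeR 4.0.16 and DESeq2 1.42.0 on recovered reads, a 2-fold threshold, all groups in 1 fit, a replicate block, leaving out each library, TNP replicates 1 and 2 averaged because their library names share an animal-like number, and a skeletal muscle covariate. Leaving out both MGNP replicates 2 and 4 was added after the data were seen. Near-identical transcripts were sought with blastn 2.17.0. Motifs were searched in RefSeq promoter windows.

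Members and lists were chosen with earlier results of these data known. All members are described. Of the 29 other genes of the pathway, the 3 with the largest differences among those passing without overlap in TN against MGN and in TNP against MGNP are named, with Erbb2 as a check of the labels. A few genes of the pathway are not analysed here. The lymphocyte list is given without a gene that is not reported here.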

Additional observations from a re-analysis of the deposited data

Results flagged for a closer look

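In 6 of 112 sets of 4 libraries (28 genes in MGN, MGNP, TN and TNP), the highest or lowest library stood apart from the other 3 by Dixon's criterion (the gap to the nearest library over the range, on the log2 scale, past its 95% critical value), which chance gives in about 1 of 20 sets. *Hmgcs1* was at 6691.5 normalized counts in MGNP replicate 4 and at 2080.2 to 2417.5 in the other 3. *Mylip* was at 1727.3 in MGNP replicate 1 and at 1293.9 to 1346.3 in the others, and at 1779.8 in TN replicate 4 against 2668.8 to 2772.1. *Dhcr7* was at 677.6 in TN replicate 3 and at 1290.7 to 1343.4 in the others. TN replicate 2 was lowest for *Scap* (1359.2 against 2915.4 to 3289.1) and for *Npc1* (1889.2 against 2151.9 to 2204.5).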

How the results depend on the processing

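Over the named genes that passed, 1120 of 1256 values under an alternative kept their direction and their side of the threshold, 135 no longer passed and 1 reversed, *Scap* in MGNP against MGWT with the skeletal muscle covariate (0.08, from -0.95). With that covariate, 0 members were higher and 0 lower in MGNP against MGWT, and 3 were higher and 0 lower in TNP against MGNP. How many of all genes passed with it is not given here. A general loss of calls and a loss particular to the members therefore cannot be told apart. The cause of these changes was not tested. MGNP and MGWT do not overlap in the muscle score, so muscle content and group cannot be told apart between them. With a 2-fold threshold, 3 members were lower in MGN against MGWT, 3 were higher in MGNP against MGWT, 3 were higher and 3 lower in TN against MGN, 6 were higher in TNP against MGNP and 9 were higher in the tumors against MGWT, since fewer genes can pass. In TNP against MGNP the members lower numbered 2, against 1, with a pseudocount of 5, TMM scaling, edgeR, DESeq2 and all groups in 1 fit, the second being *Hmgcs1*. DESeq2 called 1 member lower in MGNP against MGN. With 1 library left out, members lower in MGN against MGWT numbered 3 to 5 (3 without MGWT replicate 3). In the same kind of fit, members higher in TN against MGN numbered 3 to 7 and lower 3 to 6. Those lower in TNP against MGNP numbered 0 to 2. How many of all genes passed with the 2-fold threshold or with 1 library left out is not given here. At these settings too, a loss particular to the members cannot be told from a general one.

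The count of all genes passing with the replicate block is likewise not given here. With the replicate block, TN against MGN gave 3 members higher and TNP against MGNP 0 lower. The same numbers do not pair the samples (correlations of deviations from -0.26 to 0.30), and the block moved no other count of members by more than 1.5 times. Averaging TNP replicates 1 and 2 moved no count of members by that much, but ended the call of *Mvd* in TNP against MGNP (0.66, adjusted p = 0.0591). Depth was at least 20899152 reads on genes, and the lowest member, *Fdps*, had 25.4 to 164.4 normalized counts.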
